A study of Mus musculus with 4 samples.

Results

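The 8 mouse genes of the stromal homeostatic chemokine system described here are the 6 secreted ligands Cxcl12, Cxcl14, Cxcl13, Ccl11, Ccl19 and Ccl21a, and the 2 receptors Cxcr4 and Ackr3. They were chosen by name, though with earlier results of these data known. They were read as raw counts of unique molecular identifiers (UMIs, which count captured RNA molecules) by the gene IDs of the ligated library. The 8 symbols belong to 10 of the 30406 gene IDs shared by all libraries. The 2 extra IDs are scaffold copies of Ccl19 and Ccl21a and held no UMI in any library.

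The cells came from submandibular gland of female C57BL6/J mice, with the sublingual gland harvested along with it, and were profiled by droplet single-cell RNA sequencing. In the ligated group, 1 library, a metal clip closed the main ducts for 14 days. In the mock group, 3 libraries, the ducts were exposed but not clipped, and cells were taken at the same day. All mice carried the strain's own genome with no transgene in the labels, and all suspensions were depleted of EpCAM-bearing epithelial and Ter119-bearing red cells with beads, so cell shares follow that depletion. The labels do not say how many mice went into a library.

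The ligated library held 13790 barcodes and 80187555 UMIs, and mock libraries 1, 2 and 3 held 4798, 9627 and 13194 barcodes with 29897488, 47182114 and 56932041 UMIs. Pairs of libraries shared 11 to 61 barcode sequences, at most 0.634% of the smaller library. After filtering, 39040 cells fell into 43 clusters, of which 34 matched a cell class by fixed marker lists, none of which held any of the 8 genes. The ligated library and mock 1 carry software version 6.0.1 in their file headers, and mock 2 and 3 carry 7.0.0. Genes with much intronic sequence stood higher in mock 2 and 3: among the fibroblast genes with most of it (4170 genes of 37283 intronic bases or more), the median log2 ratio over mock 1 was -0.08 for the ligated library, against 0.28 for mock 2 and 0.26 for mock 3, while among those with least (10247 bases or fewer) it was 0.04 for the ligated library, against -0.02 for mock 2 and -0.03 for mock 3. All 8 genes are on the short side, with at most 9424 intronic bases (Ackr3). Neither the labels nor the file headers say whether intronic reads were counted. Mock 2 and 3 lay closest to each other over all genes (chi-square per degree of freedom 11.96, against 182.5 to 539.9 for the other pairs), so mock 1 stood apart within its group and each result below is given library by library. Stromal labels held: fibroblasts, vascular endothelium, mural cells, lymphatic endothelium and glia were all present, beside 297 epithelial cells in the ligated library and 217, 685 and 903 in the mock libraries that passed the depletion.

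Chemokines are small secreted proteins that guide cells through G-protein-coupled receptors. Homeostatic ones are made by resident stroma without an inflammatory trigger: CXCL12 holds CXCR4-bearing leukocytes and progenitors near vessels, and ACKR3 takes up CXCL12 without G-protein signalling and so clears it. CCL19 and CCL21 guide CCR7-bearing T cells and dendritic cells, CXCL13 guides CXCR5-bearing B cells, CCL11 (eotaxin) attracts CCR3-bearing eosinophils, and CXCL14 is a fibroblast and epithelial chemokine whose receptor use is debated. In salivary glands, lymphoid chemokines are known from the lymphocyte clusters that form in inflamed tissue.

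Cxcl12 (ENSMUSG00000061353) is on the plus strand of chromosome 6 (mm10) at 117168535 to 117181367, Cxcl14 (ENSMUSG00000021508) on the minus strand of chromosome 13 at 56288643 to 56296551, and Cxcl13 (ENSMUSG00000023078) on the plus strand of chromosome 5 at 95956951 to 95961068. Ccl11 (ENSMUSG00000020676) is on the plus strand of chromosome 11 at 82057823 to 82062955. The receptors are both on chromosome 1, Cxcr4 (ENSMUSG00000045382) on the minus strand at 128588199 to 128592293 and Ackr3 (ENSMUSG00000044337) on the plus strand at 90203980 to 90216751. Counts are per gene and do not tell exons from introns or UTRs.

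Ccl19 (ENSMUSG00000071005, 42754525 to 42756577) and Ccl21a (ENSMUSG00000094686, 42772860 to 42773993) lie 16282 bases apart on the minus strand of chromosome 4. Their promoters are shown because the pair was read out in separate cell classes in every library. The sequences are from RefSeq on GRCm38.p6, run 5′ to 3′ on the gene's strand from 250 bases before to 50 bases after the annotated start, and capitals mark the single motif match in the pair, an inverted CCAAT in the Ccl19 window.
Ccl19, chr4:42756316-42756615, minus strand: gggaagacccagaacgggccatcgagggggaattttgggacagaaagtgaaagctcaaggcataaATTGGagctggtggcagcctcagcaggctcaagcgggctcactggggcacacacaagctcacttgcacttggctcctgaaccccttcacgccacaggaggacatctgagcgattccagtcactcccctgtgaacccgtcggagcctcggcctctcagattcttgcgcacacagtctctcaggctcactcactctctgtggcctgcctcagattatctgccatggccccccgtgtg
Ccl21a, chr4:42773942-42774241, minus strand: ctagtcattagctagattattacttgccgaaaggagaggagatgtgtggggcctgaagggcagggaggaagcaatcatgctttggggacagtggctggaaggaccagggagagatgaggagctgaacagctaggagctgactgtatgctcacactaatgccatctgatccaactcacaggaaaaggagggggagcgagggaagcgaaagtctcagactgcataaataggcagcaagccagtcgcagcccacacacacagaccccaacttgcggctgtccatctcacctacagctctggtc

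Promoter windows were found for 7 of the 8 genes, all but Ccl11. Both strands were searched for the TATA box TATAAA, the GC box GGGCGG, the CCAAT box by those letters, and an NF-kB motif, which occur in 13.6%, 35.6%, 37.4% and 5.56% of 32817 windows of the same kind. Cxcl12 held 5 GC boxes and Cxcl14 held 3, with 20 and 22 CpG dinucleotides against a median of 7. Cxcl13 held 1 TATA box and 3 CpG. Cxcr4 held overlapping TATA matches on both strands and 3 GC boxes, and Ackr3 held 1 each of the TATA, GC and CCAAT boxes. None of the 7 windows held the NF-kB motif, which says only that its letters are not in these windows.

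Ccl21a also has near-identical copies, which bears on its counts. Its transcript and that of Gm21541, a copy on the plus strand of chromosome 4 at 41903610 to 41904743, are both 870 bases and 99.3% identical, with 6 differences. One of them, C269T (the Ccl21a base, its position from the transcript's 5′ end, the Gm21541 base), is shown with 30 bases of each copy, capitals marking the differing base.
Ccl21a, 254 to 283: cggcaatcctgttctCaccccggaagcact
Gm21541, 254 to 283: cggcaatcctgttctTaccccggaagcact
Gm21541 received 75 UMIs in the ligated library, and 173, 13 and 2 UMIs in mock 1, 2 and 3, against 9351 Ccl21a UMIs in the ligated library and 2137, 1872 and 551 in the mock libraries. How reads common to the copies were assigned is not stated by the labels or file headers, so Ccl21a counts are uncertain by that amount or more.

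Levels are given in CPM, a gene's UMIs in a cell class of a library divided by all UMIs of that class there, times 1000000. Differences are log2 ratios, ligated over mock, fitted with edgeR's quasi-likelihood test on sums per class and library, with a standard error (SE) and a Benjamini-Hochberg adjusted p over every gene tested in the class. Since there was 1 ligated library, its spread came from the mock libraries alone, on 2 residual degrees of freedom, and an exact permutation of the 4 libraries cannot go below p = 0.25. Under this test no gene at all passed an adjusted p of 0.05 in fibroblasts (0% of 12515 genes, 1531 at unadjusted p under 0.05), endothelium (0% of 14201, 1311 unadjusted) or mural cells (0% of 11548, 581 unadjusted). The same held for T cells (0% of 10498, 1290 unadjusted), NK or ILC1 cells (0% of 12236, 699 unadjusted), macrophages or monocytes (0% of 9681, 1383 unadjusted) and all cells summed (0% of 17494, 2607 unadjusted). DESeq2, run on the same sums, called 2.19% of genes in fibroblasts, 8.02% in all cells and 0.00577% (a single gene, none of the 8) in mural cells.

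The ligands came from few sender classes, in ligated and mock libraries alike. Fibroblasts held 96.8% of Cxcl14 UMIs in the ligated library, against 99.1%, 98.8% and 98.9% in mock 1, 2 and 3. They held 86.3% of Ccl11 UMIs in the ligated library and 73.2%, 87.6% and 86.0% in the mock libraries, with mural cells holding 10.4% in the ligated and 26.2%, 11.5% and 12.8% in the mock libraries. Cxcl12 was mainly endothelial, with 74.5% of its UMIs in the ligated library and 92.2%, 84.2% and 84.2% in the mock libraries. Ccl21a belonged to lymphatic endothelium, with 93.6% in the ligated library and 99.3%, 99.3% and 99.6% in the mock libraries. Ccl19 was divided between fibroblasts and mural cells, and Cxcl13 was almost wholly fibroblast in mock libraries. Such shares join how many cells of a class were captured with how much RNA each held: fibroblasts were 11.3% of ligated cells, and 4.58%, 4.59% and 4.55% of mock cells.

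**Figure D1:**
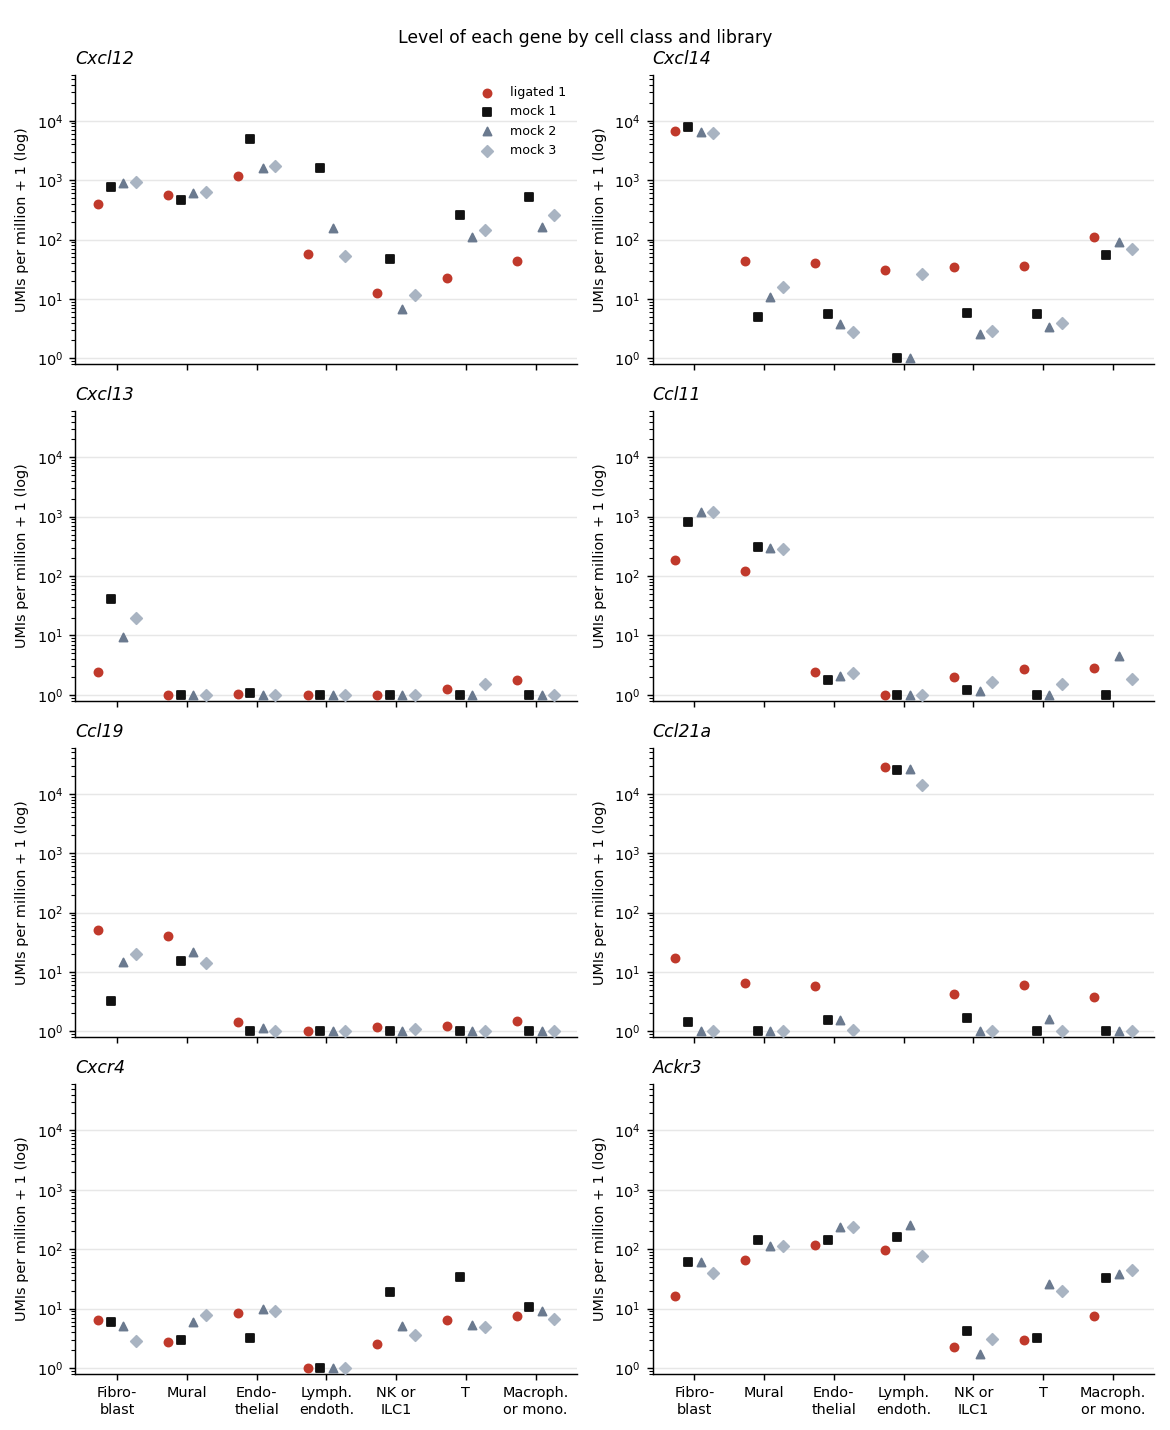
Level of each of the 8 genes in 7 cell classes, as CPM plus 1 on a log axis, with 1 point per library and the ligated library leftmost in each class. Ccl21a, at 14085 CPM or more, stands out in lymphatic endothelium and Cxcl14, at 6196 CPM or more, in fibroblasts, and ligated Ccl11 lies below all mock points in fibroblasts and mural cells.

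In fibroblasts the ligated library lay outside the mock range for 7 of the 8 genes. Ccl19, Ccl21a and Cxcr4 lay above it, 3 genes where 23.4% of all genes tested did so, and Cxcl12, Cxcl13, Ccl11 and Ackr3 lay below it, 4 genes where 35.3% of all genes did. The median log2 difference of the 8 genes was -0.45, and -0.03 over all fibroblast genes tested. DESeq2 called 4 of the 8 in this class, Ccl11, Cxcl13 and Ackr3 lower and Ccl21a higher in the ligated library, beside the 2.19% of genes it called there. The genes are taken in turn below.

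Ccl11, the eosinophil attractant eotaxin, stood lower in fibroblasts of the ligated library, though the test did not call it. It stood at 185 CPM in ligated fibroblasts, against 803, 1191 and 1208 CPM in mock 1, 2 and 3 (mock mean 1067 ± 229, SD, n = 3). The ligated value lay below every mock value and the groups did not overlap. The fitted difference was -2.41 (SE 0.30, adjusted p = 0.154 by edgeR's quasi-likelihood test, 2.78e-07 by DESeq2), and -2.12 against mock 1 alone, the mock library of the same software version.

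The lower level was spread over the cells. The median ligated fibroblast held 0 Ccl11 UMIs, against 8, 8 and 7 in mock fibroblasts. After each cell was thinned to 2000 UMIs, 25.0% of ligated fibroblasts (298 of 1190, exact 95% interval 22.6% to 27.6%) held a Ccl11 UMI, against 70.3%, 76.9% and 79.7% of mock fibroblasts. Without thinning the shares were 45.4% in the ligated library and 89.9%, 91.5% and 92.0% in the mock libraries. NK or ILC1 cells, which should lack the gene, gave 0.249% in the ligated library and 0%, 0% and 0.0695% in the mock libraries after thinning, so the fibroblast shares lay far above free RNA. Intervals here and below cover counting error only.

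Mural cells, the pericytes and smooth muscle that wrap vessels, gave Ccl11 the same direction. Ccl11 had 119 CPM in ligated mural cells, against 307, 293 and 281 CPM in mock mural cells (294 ± 12.8, SD, n = 3), a fitted difference of -1.25 (SE 0.25, adjusted p = 0.785, edgeR). Pericytes had 255 CPM in the ligated library and 1068, 612 and 540 CPM in the mock libraries, while smooth muscle had 10.9 CPM in the ligated library and 36.4, 30.1 and 36.4 CPM in the mock libraries. In mural cells as a whole, Cxcl14 and Ccl19 lay above the mock range, 2 of 6 genes tested against 24.5% of all genes, and Ccl11, Cxcr4 and Ackr3 below it, 3 of 6 against 28.1% of all genes. Different clusters held the mural cells: 1 pericyte and 1 smooth muscle cluster with 328 and 238 ligated cells and 111 and 155 cells of mock 1, and another pair with 156 and 132 cells of mock 2 and 214 and 189 of mock 3. The fibroblast difference minus the mural difference was -1.12 for Ccl11 (adjusted p = 0.292), in a test that called 0.466% of 12650 genes. The fibroblast minus endothelial term for Ccl11 was -2.71 and passed (adjusted p = 0.0048, edgeR with a term for each library, 3.51% of 15259 genes called), but endothelial Ccl11 was 1.4 CPM in the ligated and 0.8, 1.1 and 1.3 CPM in the mock libraries, near the level that fibroblast markers reach there.

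Where a fibroblast fell among the clusters went with surgery, so Ccl11 was also read cluster by cluster. A cluster led by Mgp and Cilp beside collagens held 1166 ligated fibroblasts and 70, 36 and 54 mock ones, and a cluster led by Gsn and Lama2 held 23 ligated and 124, 383 and 517 mock ones. In the Mgp and Cilp cluster Ccl11 had 180 CPM in the ligated library and 489, 602 and 605 CPM in the mock libraries. In the Gsn and Lama2 cluster it had 671 CPM in the ligated library and 976, 1241 and 1258 CPM in the mock libraries. Ligated Ccl11 was therefore below every mock value within both clusters, and the Gsn and Lama2 cluster was the higher one in every library. A small cluster led by Pi16 and Dpt (22 ligated cells and 12, 6 and 7 mock cells) had 184 CPM in the ligated library and 459, 636 and 346 CPM in the mock libraries.

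**Figure D2:**
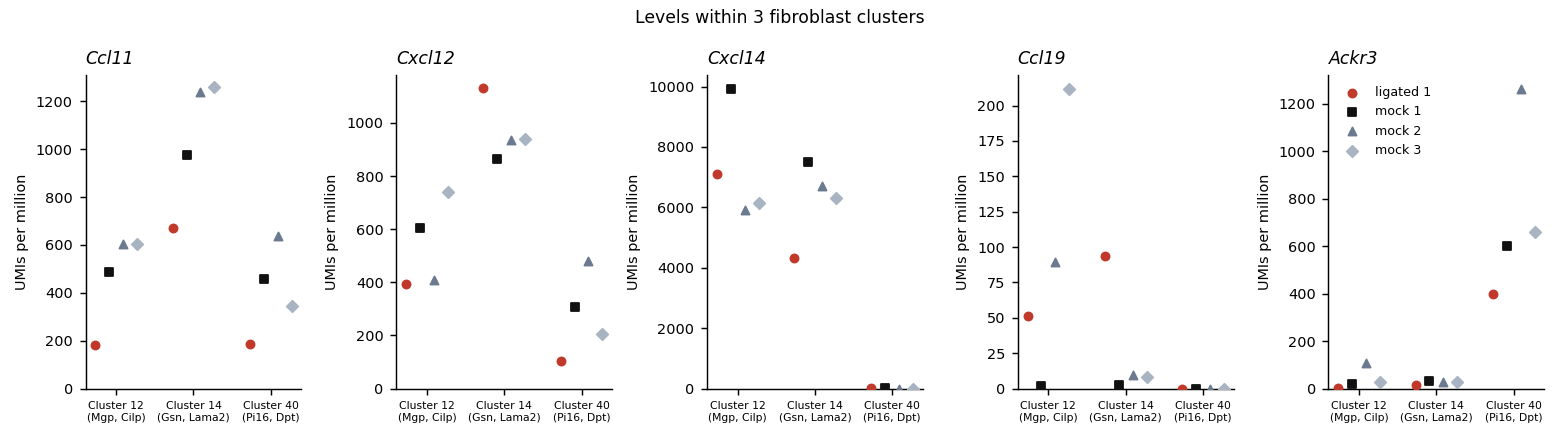
Level in CPM of Ccl11, Cxcl12, Cxcl14, Ccl19 and Ackr3 within the 3 larger-depth fibroblast clusters, 1 point per library with the ligated library leftmost. Ligated Ccl11 is below the mock points in each cluster, ligated Ccl19 lies among them in the Mgp and Cilp cluster, and Ackr3 is highest in the Pi16 and Dpt cluster.

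Cxcl14, the constitutive fibroblast chemokine, did not differ by more than the mock spread in fibroblasts. It had 6750 CPM in ligated fibroblasts, against 7772, 6506 and 6196 CPM in mock fibroblasts (6824 ± 835, SD, n = 3). The ligated value sat inside the mock range, with a fitted difference of 0.10 (SE 0.20, adjusted p = 0.854, edgeR), and the sign turned when software version was a term (-0.15). The median fibroblast held 46.5 Cxcl14 UMIs in the ligated library and 64, 46 and 38 in the mock libraries. Summed over all cells the gene stood at 1200 CPM in the ligated library and 609, 484 and 432 CPM in the mock libraries, and fewer or more cells of a type and less or more RNA per cell cannot be told apart in that sum. The Pi16 and Dpt cluster had 18 CPM in the ligated library and 16, 0 and 0 CPM in the mock libraries, while both larger fibroblast clusters lay at 4320 CPM or more in every library.

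Outside fibroblasts Cxcl14 was higher in the ligated library in most classes, at a level that fibroblast marker genes shared. In endothelial cells it reached 0.573% of the fibroblast level in the ligated library and 0.06%, 0.0421% and 0.0282% in the mock libraries. The median of 10 fibroblast markers (collagens, Dcn, Lum and others) in the same cells was 0.673% in the ligated library and 0.092%, 0.0364% and 0.0412% in the mock libraries. T cells and NK or ILC1 cells gave the same picture, with 0.525% and 0.501% in the ligated library beside marker medians of 0.601% and 0.55%. Cxcl14 was the 1 gene of the 8 to pass edgeR's test in any class, in epithelial cells, where it stood at 141 CPM in the ligated library and 19.0, 3.5 and 5.4 CPM in the mock libraries (log2 4.19, SE 0.52, adjusted p = 0.0437, 0.537% of 7828 genes called), and there too it was 2.09% of the fibroblast level beside a marker median of 2.02%. The call was lost in edgeR without mock 2 (adjusted p = 0.825), without mock 3 (adjusted p = 0.435), with mock 2 and 3 summed (adjusted p = 0.475) and at clustering resolution 2 (adjusted p = 0.068), with a log2 difference of 2.82 to 4.54 over all its alternatives. Whether free RNA carries these differences was not tested. The fibroblast minus endothelial term of -3.56 (adjusted p = 0.00309, edgeR) rests on the same endothelial values.

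Macrophages or monocytes were the exception. Their Cxcl14 stood at 109 CPM in the ligated library and 53.9, 89.2 and 67.5 CPM in the mock libraries. That was 1.61% of the fibroblast level in the ligated library and 0.694%, 1.37% and 1.09% in the mock libraries, above the marker median of 0.493% in the ligated library and 0.0643%, 0.0568% and 0.0122% in the mock libraries. The ligated over mock difference was 0.59 (SE 0.33, adjusted p = 0.472, edgeR). In this class Cxcl14 was the 1 gene of 4 tested above the mock range, where 25% of all genes were, and Cxcl12 and Ackr3 were the 2 below it, where 23.3% were.

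**Figure D3:**
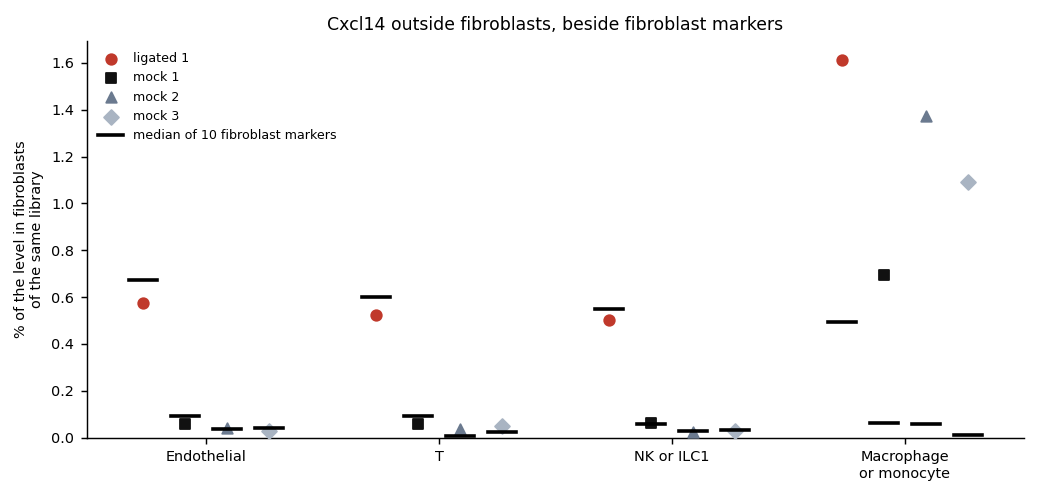
Cxcl14 level in 4 cell classes as a percentage of the fibroblast level of the same library, with 1 point per library, ligated leftmost, and a black line at the median of 10 fibroblast markers. Points follow the lines in endothelial, T and NK or ILC1 cells and lie above them in macrophages or monocytes, in all 4 libraries.

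Cxcl12, the ligand of Cxcr4 and Ackr3, ran along the arterial side of the vessels. Arterial cells had 2364 CPM in the ligated library and 8460, 3370 and 3206 CPM in the mock libraries, capillary cells 1038 CPM in the ligated and 4578, 1245 and 1312 CPM in the mock libraries, and venous cells 235 CPM in the ligated and 757, 281 and 360 CPM in the mock libraries. The order arterial, capillary, venous held in each of the 4 libraries, although the arterial and capillary mock means (5012 ± 2987 and 2378 ± 1905 CPM, SD, n = 3) overlapped in their spread because mock 1 was far above mock 2 and 3. Pericytes lay above venous cells in every library, with 961 CPM in the ligated library and 1051, 1022 and 1027 CPM in the mock libraries.

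Over all vascular endothelium, Cxcl12 stood at 1190 CPM in the ligated library and 4926, 1569 and 1698 CPM in the mock libraries. The ligated library was lowest, but mock 1 differed more from the other mock libraries than the ligated library did. The fitted difference was -1.27 (SE 0.89, adjusted p = 0.623, edgeR) and was -0.48 without mock 1.

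Different clusters held the endothelial cells of the libraries, so Cxcl12 was also read within 3 capillary ones. The one with Car4 and Emcn in front counted 81 ligated cells against 290, 2277 and 3348 mock cells. The one with Aqp1 and Igfbp3 counted 2528 ligated cells against 285, 46 and 41 mock cells. The one with Rbp7 and Thrsp, where Cxcl12 was also among the leading genes, counted 531 ligated cells against 1504, 127 and 147 mock cells. Cxcl12 stood below the mock range in the Aqp1 and Igfbp3 cluster, with 621 CPM in the ligated library and 1517, 969 and 1128 CPM in the mock libraries. It stood inside the mock range in the other two, with 2554 CPM in the ligated library and 3243, 1217 and 1248 CPM in the mock libraries of the Car4 and Emcn cluster, and 2372 CPM in the ligated library and 5184, 1547 and 1452 CPM in the mock libraries of the Rbp7 and Thrsp cluster. These clusters were chosen after their cells had been counted. A further capillary cluster, led by Rsad2 and Car4, held 141 ligated cells against 176, 775 and 925 mock cells. Its levels are not given here, for Cxcl12 or for Ackr3.

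Cxcl12 and Ackr3 were the 2 of 6 genes tested below the mock range in endothelium, where 22.3% of all genes were, and Cxcl14, Ccl11 and Ccl21a the 3 above it, where 34.3% were, with Ccl11 and Ccl21a at a few CPM in the ligated library and Cxcl14 below the median level of fibroblast markers there. Thinned to 2000 UMIs, 58.6% of ligated endothelial cells held a Cxcl12 UMI, against 88.3%, 71.2% and 72.2% of mock cells. NK or ILC1 cells gave 2.45% in the ligated library and 3.14%, 0.927% and 1.04% in the mock libraries.

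Fibroblast Cxcl12 was lower in the ligated library with little spread in mock. It had 396 CPM in ligated fibroblasts, against 755, 897 and 915 CPM in mock fibroblasts (855 ± 87.7, SD, n = 3). The groups did not overlap, and the fitted difference was -0.99 (SE 0.18, adjusted p = 0.213, edgeR) and -0.93 against mock 1 alone. A fibroblast sub-cluster led by endothelial genes, Flt1, Adgrl4 and Pecam1 among them, held 48 ligated cells and 6, 41 and 56 mock cells. Endothelial markers in fibroblasts had medians of 2.71% of the endothelial level in the ligated library and 1.45%, 5.18% and 5.79% in the mock libraries. Their part in fibroblast Cxcl12 and Ackr3 was not tested. Within clusters the picture was mixed. In the Mgp and Cilp cluster Cxcl12 had 394 CPM in the ligated library and 604, 407 and 740 CPM in the mock libraries. In the Gsn and Lama2 cluster it had 1131 CPM in the ligated library, from 23 cells, and 863, 937 and 938 CPM in the mock libraries, so there the ligated value was the highest.

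Mural Cxcl12 showed no difference of that size, though endothelial markers also stood lower in ligated mural cells than in those of mock 2 and 3. Marker medians there were 6.27% of the endothelial level in the ligated library and 5.68%, 13.7% and 19.3% in the mock libraries. Their part in mural Cxcl12 was not tested. It had 556 CPM in the ligated library and 471, 608 and 640 CPM in the mock libraries, inside the mock range (log2 0.02, SE 0.23, adjusted p = 0.988, edgeR). The fibroblast minus mural term was -0.99 (SE 0.21, adjusted p = 0.114). T cells gave 21.4 CPM in the ligated library and 263, 109 and 144 CPM in the mock libraries, 1.80% of the endothelial level in the ligated library and 5.33%, 6.94% and 8.48% in the mock libraries, beside endothelial marker medians of 1.80% in the ligated library and 6.52%, 5.995% and 9.21% in the mock libraries. Lymphocyte Cxcl12 was thus at the level those markers reach. The T minus NK or ILC1 term of -2.35 (adjusted p = 1.29e-09, 4.55% of 12898 genes called, edgeR) compares such values.

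**Figure D4:**
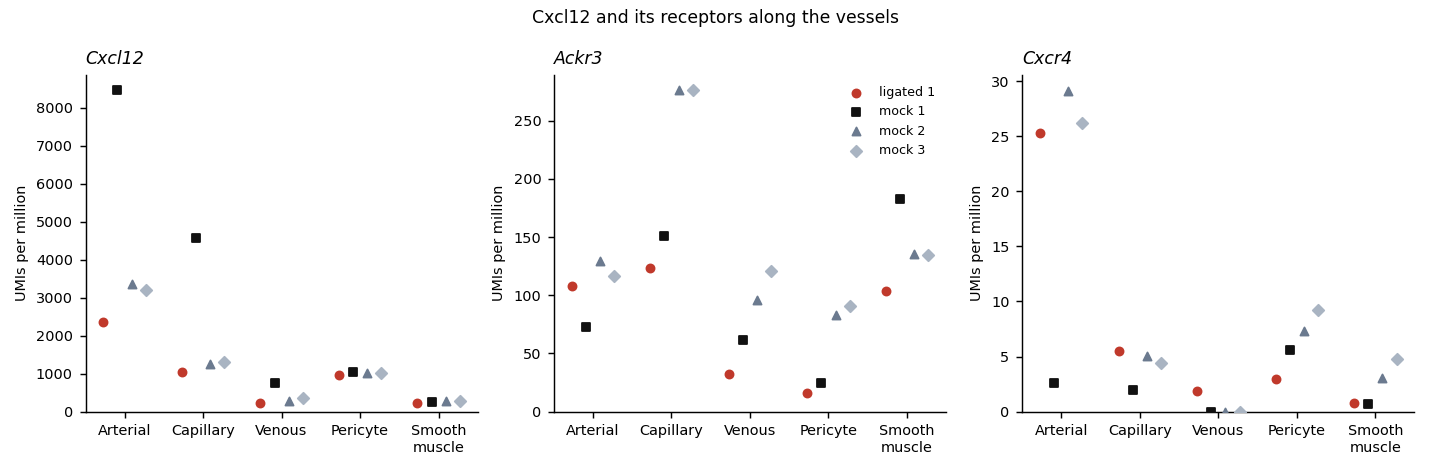
Cxcl12, Ackr3 and Cxcr4 in CPM in arterial, capillary and venous endothelium, pericytes and smooth muscle, 1 point per library with the ligated library leftmost. Cxcl12 is highest in arterial cells in every library, while mock 1 alone departs from arterial Cxcr4 and from Ackr3 being highest in capillary cells.

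Ccl19, a ligand of CCR7, was higher in the ligated library but came from few cells. In fibroblasts it stood at 49.3 CPM in the ligated library, against 2.3, 13.5 and 19.0 CPM in the mock libraries (11.6 ± 8.5, SD, n = 3). The ligated value lay above every mock value, with a fitted difference of 2.16 (SE 0.80, adjusted p = 0.404, edgeR). A Ccl19 UMI was found in 209 of 1416 ligated fibroblasts, against 5 of 207, 19 of 425 and 23 of 578 mock fibroblasts. The 10 cells with most Ccl19 held 30.1% of it in the ligated library and 100%, 80.4% and 82.2% in the mock libraries, shares that also follow the number of cells and UMIs in each library. Thinned to 2000 UMIs, 5.88% of ligated fibroblasts (exact 95% interval 4.61% to 7.37%) and 0.521%, 1.46% and 1.47% of mock fibroblasts held one. Within the Mgp and Cilp cluster, however, Ccl19 had 51.0 CPM in the ligated library and 1.6, 89.8 and 211 CPM in the mock libraries, from 1, 17 and 44 mock UMIs. There the ligated value lay inside the mock range and the fitted sign turned (log2 -0.73, adjusted p = 1.00), a comparison chosen after the data were seen.

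Mural Ccl19 lay the same way. It had 39.9 CPM in ligated mural cells, against 14.2, 20.4 and 13.0 CPM in mock mural cells (15.9 ± 3.97, SD, n = 3), a fitted difference of 1.40 (SE 0.33, adjusted p = 0.785, edgeR). A Ccl19 UMI was found in 28 of 568 ligated mural cells and in 4 of 268, 6 of 336 and 12 of 483 mock ones. A mural sub-cluster found without the 8 genes, and led by Csmd1, Gpx3, Mfap5 and Colec11 beside Ccl19, held most of these UMIs: 83 of 92 in the ligated library, and 28 of 29, 35 of 37 and 30 of 32 in the mock libraries. It comprised 27 ligated cells and 5, 10 and 17 mock cells. Its own Ccl19 level was 646 CPM in the ligated library and 1025, 669 and 444 CPM in the mock libraries, which overlap, and its Ccl11 level was 569 CPM in the ligated library and 1830, 1089 and 1479 CPM in the mock libraries, which do not. Over all cells Ccl19 stood at 10.2 CPM in the ligated library and 1.2, 1.9 and 1.9 CPM in the mock libraries (log2 2.67, adjusted p = 0.144 by edgeR, 4.75e-06 by DESeq2).

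Ccl21a, the other CCR7 ligand, was the product of a few lymphatic endothelial cells. This cluster, led by Mmrn1, Lyve1, Reln and Prox1, held 31 ligated cells and 6, 11 and 9 mock cells, too few to test. Ccl21a stood at 28308 CPM in the ligated library (counting interval 27712 to 28914) and 25512, 25723 and 14085 CPM in the mock libraries. The median cell held 138 Ccl21a UMIs in the ligated library and 210, 154 and 53 in the mock libraries, and the highest single cell held 2591 in the ligated library and 1386, 407 and 164 in the mock libraries. A handful of cells thus set the library totals, which over all cells came to 128 CPM in the ligated library and 75.8, 40.5 and 9.9 CPM in the mock libraries (log2 1.66, SE 1.05, adjusted p = 0.473, edgeR).

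Ccl21a UMIs in other classes were few. Fibroblasts had 15.9 CPM in the ligated library and 0.5, 0 and 0 CPM in the mock libraries, and 103 of the 195 ligated UMIs lay in a single cluster of 205 ligated cells and 1 mock cell with a median of 722.5 UMIs per cell, 0.156 of its library's median. In that cluster Ccl21a stood at 412 CPM. Ligated endothelial, T, NK or ILC1 and mural cells held 3.2 to 5.6 CPM. Such levels were at most 0.0199% of the lymphatic level in these 4 classes.

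Cxcl13, the B cell attractant, was scarce. Fibroblasts had 1.5 CPM in the ligated library (18 UMIs), against 40.7, 8.5 and 19.0 CPM in the mock libraries (89, 29 and 73 UMIs). The ligated value lay below every mock value, but the mock values themselves spread widely (22.7 ± 16.4, SD, n = 3), and the fitted difference of -3.81 did not pass with edgeR (adjusted p = 0.368) and passed with DESeq2 (adjusted p = 0.0051). The 10 highest fibroblasts held 77.8% of it in the ligated library and 85.4%, 79.3% and 76.7% in the mock libraries. Its receptor Cxcr5 gave 9 UMIs in all ligated cells and 3, 44 and 62 in all mock cells.

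Over all cells summed, Cxcl14, Ccl19 and Ccl21a lay above the mock range, 3 genes where 30.3% of all genes did so, and Cxcl12, Cxcl13, Ccl11, Cxcr4 and Ackr3 lay below it, 5 genes where 31.9% did. Of these DESeq2 called Ccl19 and Cxcl14 higher and Ccl11 and Ackr3 lower, beside the 8.02% of genes it called. The sum moves with cell shares: endothelial cells were 33.4% of ligated cells and 59.5%, 61.3% and 60.3% of mock cells, T cells 11.1% of ligated cells and 3.03%, 2.73% and 2.72% of mock cells.

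**Figure D5:**
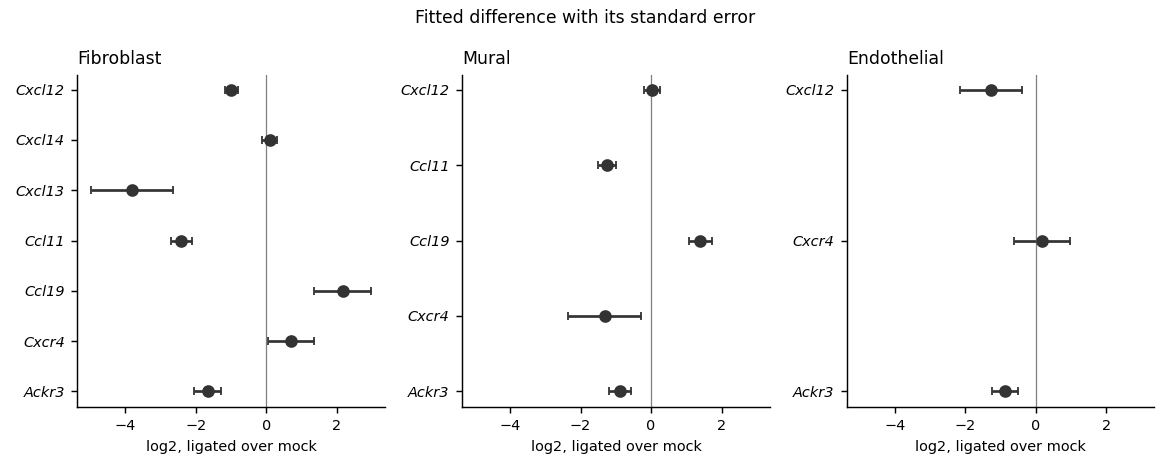
Fitted log2 ratio, ligated over mock, with its standard error from edgeR for the genes tested in fibroblasts, mural and endothelial cells, leaving out Cxcl14 in mural and endothelial cells and Ccl11 in endothelial cells, which lie within the range of 10 fibroblast markers there, and Ccl21a. Ccl11 is left of 0 and Ccl19 right of 0 in both fibroblasts and mural cells, Ackr3 is left of 0 in all 3 classes, and none passed an adjusted p of 0.05.

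Ackr3, the scavenging receptor for CXCL12, was highest among blood vessel classes in capillary cells in the ligated library, mock 2 and mock 3. In mock 1 it was highest in smooth muscle. The small fibroblast cluster led by Pi16 and Dpt stood higher than these in every library, as given below. Lymphatic endothelium held 29 Ackr3 UMIs in the ligated library and 13, 18 and 3 in the mock libraries, from few cells. Capillary cells had 124 CPM in the ligated library and 151, 276 and 276 CPM in the mock libraries, smooth muscle 104 CPM in the ligated and 183, 136 and 135 CPM in the mock libraries, and arterial cells 108 CPM in the ligated and 72.8, 129 and 117 CPM in the mock libraries. Venous cells (mock 92.7 ± 29.5 CPM, SD, n = 3) and pericytes (66.1 ± 36.5) followed, and these neighbours did not differ beyond the mock spread. Capillary cells (235 ± 72.4) and smooth muscle (151 ± 27.6) also overlapped when mock 1 was included.

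Ackr3 was lower in the ligated library in most of these classes. All endothelial cells had 116 CPM in the ligated library and 142, 239 and 237 CPM in the mock libraries (log2 -0.88, SE 0.36, adjusted p = 0.571, edgeR), and -0.29 against mock 1 alone. Mural cells had 64.7 CPM in the ligated library and 141, 112 and 113 CPM in the mock libraries (log2 -0.87, SE 0.31, adjusted p = 0.785). Venous cells had 32.3 CPM in the ligated library and 61.7, 96.0 and 120 CPM in the mock libraries, and pericytes 15.7 CPM in the ligated and 24.2, 83.1 and 91.0 CPM in the mock libraries. For all endothelial cells, capillary cells and pericytes, mock 1 lay closer to the ligated library than to the other mock libraries. Ackr3 values of these classes thus parted by software version more than by surgery. For mural cells and smooth muscle, mock 1 instead lay furthest above the ligated library. In arterial cells the ligated value was inside the mock range. Within the 3 capillary clusters read for Cxcl12, which differ in how many cells each library gave, ligated Ackr3 lay below every mock value. It had 106 CPM in the ligated library and 132, 288 and 285 CPM in the mock libraries of the Car4 and Emcn cluster, and 127 CPM in the ligated library and 161, 204 and 168 CPM in the mock libraries of the Aqp1 and Igfbp3 cluster. In the Rbp7 and Thrsp cluster it had 116 CPM in the ligated library and 152, 283 and 251 CPM in the mock libraries. Here and in the Car4 and Emcn cluster, mock 1 again lay closer to the ligated library than to the other mock libraries. That was not so in the Aqp1 and Igfbp3 cluster. Thinned shares of endothelial cells with an Ackr3 UMI were 20.6% in the ligated library and 23.2%, 33.4% and 34.6% in the mock libraries, with the exact interval of the ligated library (19.2% to 22.0%) overlapping that of mock 1 (21.5% to 24.9%).

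Fibroblast Ackr3 was concentrated in the Pi16 and Dpt cluster, whose 22 ligated and 12, 6 and 7 mock cells held 132 of 190 fibroblast UMIs in the ligated library and 76 of 132, 97 of 206 and 42 of 149 in the mock libraries. Its level there was 398 CPM in the ligated library and 601, 1260 and 660 CPM in the mock libraries. Fibroblasts as a whole had 15.5 CPM in the ligated library and 60.4, 60.7 and 38.8 CPM in the mock libraries, with no overlap. The fitted difference was -1.66 (SE 0.38, adjusted p = 0.276 by edgeR, 0.0417 by DESeq2), -0.74 when 553 cells of the Mgp and Cilp cluster went unnamed under another clustering, and -3.35 within that cluster (adjusted p = 0.131, edgeR), a comparison added after the data were seen. The fibroblast minus endothelial term was -0.73 (adjusted p = 0.436) and the fibroblast minus mural term -0.76 (adjusted p = 0.418), so neither passed with all libraries. Without mock 1 the terms were -0.39 and -0.77, in fits where mock 2 and 3, the closest pair, alone set the mock spread.

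Cxcr4, the signalling receptor for CXCL12, was low everywhere, with 350 UMIs in all ligated cells and 199, 316 and 349 in the mock libraries. Arterial cells had the highest level of the classes tested in the ligated library, mock 2 and mock 3: 25.3 CPM in the ligated library and 2.6, 29.1 and 26.2 CPM in the mock libraries. The ligated value lay among mock 2 and 3, and mock 1 stood apart with 3 UMIs. B cells had 96.6 CPM in the ligated library and 75.8, 32.7 and 19.8 CPM in the mock libraries, from 4 ligated UMIs and 6, 3 and 1 mock UMIs, too few to set against other classes.

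Cxcr4 of T and of NK or ILC1 cells was highest in mock 1. T cells had 5.5 CPM in the ligated library and 32.6, 4.2 and 4.0 CPM in the mock libraries. NK or ILC1 cells had 1.5 CPM in the ligated library and 17.9, 4.0 and 2.6 CPM in the mock libraries. In T cells the fitted difference was -0.98 (SE 1.18, adjusted p = 0.736, edgeR) and turned to 0.59 without mock 1, and in NK or ILC1 cells it was -2.34 (SE 1.38, adjusted p = 0.619). In NK or ILC1 cells the ligated value lay below every mock value. The difference was -1.05 without mock 1 and -3.54 against mock 1 alone. This class sat in different clusters by library, since the one with Gzmc as its first gene counted 2957 ligated cells against 459, 4 and 23 mock cells, while another with Gzmb as its first gene counted 4 ligated cells against 2, 621 and 905 mock cells. Of the 4 genes tested in T cells, Cxcl14 lay above the mock range, where 21.9% of all genes did, and Cxcl12 and Ackr3 below it, where 31.6% did. Of the 5 tested in NK or ILC1 cells, Cxcl14 and Ccl21a lay above it, where 26.6% did, and Cxcr4 below it, where 28% did. The T minus NK or ILC1 term for Cxcr4 was 1.28 (adjusted p = 0.237).

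Partner receptors of the ligands were read from a list of 11, and none passed edgeR's test in the 6 classes examined. Ccr7, which binds CCL19 and CCL21, had 9.6 CPM in ligated T cells and 41.5, 8.4 and 13.9 CPM in mock T cells. Ccr3, the CCL11 receptor of eosinophils, gave 8 UMIs in all ligated cells and 1, 2 and 6 in mock cells. Ackr4, a decoy for CCL19 and CCL21, gave 8 UMIs in ligated fibroblasts and 6, 13 and 7 in mock ones. Ccr3 and Ackr4 gave too few UMIs to place a receiver. Ccr7 gave 368 UMIs in all ligated cells and 70, 46 and 68 in mock cells. Of the ligated ones 77 lay in T cells, 11 in B cells and 11 in NK or ILC1 cells, so most lay in cells that bear none of these names. Among the named classes its level was highest in B cells, at 266 CPM in the ligated library and 101, 109 and 119 CPM in the mock libraries, from 11 ligated UMIs and 8, 10 and 6 mock UMIs. No level was taken for the cells of unnamed clusters. In endothelium 6 of the 9 list genes tested lay above the mock range and 2 below, where 34.3% and 22.3% of all genes did, with a median log2 difference of 1.21 beside -0.04 over all genes. Among them Gpr182, an endothelial chemokine scavenger, had 33.2 CPM in the ligated library and 10.4, 15.8 and 15.3 CPM in the mock libraries (log2 1.21, SE 0.27), and Ackr1, a venous decoy receptor, had 16.6 CPM in the ligated and 9.4, 7.4 and 7.5 CPM in the mock libraries (log2 0.98, SE 0.26). The others above the range had a mean under 10 CPM in endothelium. Cxcr3 was among them, with 3.3 CPM in ligated endothelium and 0.3, 0.08 and 0.04 CPM in mock endothelium. Ccr2, with 2.1 CPM in the ligated and 0.7, 0.2 and 0.4 CPM in the mock libraries, was another. Ccrl2 lay below the range, at 65.7 CPM in ligated endothelium and 80.2, 91.3 and 95.4 CPM in mock endothelium. Within venous cells Ackr1 had 261 CPM in the ligated library and 323, 318 and 236 CPM in the mock libraries, inside the mock range. Venous cells were 248 of 4204 ligated endothelial cells and 69 of 2687, 88 of 5667 and 143 of 7663 mock ones. The part of this share in endothelial Ackr1 was not tested. Cxcr3, the receptor of CXCL9 and CXCL10, had 208 CPM in ligated T cells and 167, 138 and 124 CPM in mock T cells. In NK or ILC1 cells Ccr2 had 189 CPM in the ligated library and 364, 292 and 280 CPM in the mock libraries.

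Of 10 other stromal or membrane chemokines, none passed edgeR's test in the classes examined, which left out epithelial and erythroid cells. In fibroblasts 4 of 7 tested lay above the mock range and 1 below, where 23.4% and 35.3% of all genes did. Cxcl9, an interferon-induced CXCR3 ligand, had 77.3 CPM in ligated fibroblasts and 1.8, 4.1 and 8.6 CPM in mock fibroblasts (log2 4.04, SE 0.59). Its relative Cxcl10 had 51.8 CPM in ligated endothelium and 5.2, 12.7 and 12.5 CPM in mock endothelium (log2 2.30, SE 0.50). Both ligated values stood above every mock value. Cx3cl1, the membrane-bound fractalkine, and Cxcl16 lay closer to mock in fibroblasts, at 97.8 and 76.6 CPM in the ligated library, against 90.6, 50.7 and 63.3 CPM for Cx3cl1 and 46.7, 63.9 and 65.6 CPM for Cxcl16 in the mock libraries.

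Among 13 enzymes and matrix genes that bind or cut chemokines, 3 of 11 tested in fibroblasts lay above the mock range and 7 below, where 23.4% and 35.3% of all genes did, with none passing. Hspg2, the heparan sulphate proteoglycan perlecan, had 507 CPM in ligated fibroblasts and 862, 808 and 869 CPM in mock fibroblasts (log2 -0.63, SE 0.18). Ctsk, a collagen-cutting cathepsin, had 497 CPM in the ligated library and 279, 256 and 303 CPM in the mock libraries (log2 0.95, SE 0.19). Ext1, which builds heparan sulphate, had 89.2 CPM in the ligated library and 114, 257 and 269 CPM in the mock libraries, so its values parted by software version more than by surgery. In endothelium 8 of 10 lay above and 1 below, beside 34.3% and 22.3% of all genes, among them Ndst1, a heparan sulphate sulphating enzyme, with 111 CPM in the ligated library and 46.2, 54.5 and 54.6 CPM in the mock libraries (log2 1.05, SE 0.15). The others above the range had a mean under 10 CPM in endothelium, so this count rests mostly on low values. Whether free RNA from other classes carries them was not tested.

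The 14 signalling and desensitization genes behind chemokine receptors gave 5 above and 5 below the mock range in fibroblasts, beside 23.4% and 35.3% of all genes, and 5 above and 1 below in mural cells, beside 24.5% and 28.1%, with none passing. Rgs16, which shortens G-protein signals, had 36.9 CPM in ligated mural cells and 6.8, 6.1 and 4.5 CPM in mock mural cells (log2 2.72, SE 0.37). Elmo1, which links receptors to Rac, had 12.8 CPM in ligated fibroblasts and 14.2, 65.7 and 62.5 CPM in mock fibroblasts. Mock 1 again lay closest to the ligated library. Rgs1 had 52.2 CPM in ligated fibroblasts and 16.5, 10.6 and 11.7 CPM in mock fibroblasts, but it is a leukocyte gene: a fibroblast sub-cluster led by Gzmc, Nkg7, Ptprc, Ltb and Rgs1 held 72 ligated cells and 2, 11 and 14 mock cells, and its part in these values was not tested.

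The lymphotoxin and NF-kB list, genes known to act upstream of CCL19, CCL21 and CXCL13 in lymphoid stroma, gave 4 of 8 above and 1 below the mock range in mural cells, 6 of 9 above and none below in endothelium, and 4 of 9 above and 1 below in fibroblasts. Over all genes 24.5% lay above and 28.1% below in mural cells, 34.3% and 22.3% in endothelium, and 23.4% and 35.3% in fibroblasts. None passed edgeR's test. Tnfrsf1a, a TNF receptor, had 247 CPM in ligated mural cells and 122, 126 and 123 CPM in mock mural cells (log2 1.05, SE 0.20). Relb, an NF-kB subunit, had 38.2 CPM in ligated mural cells and 18.6, 15.4 and 22.0 CPM in mock mural cells (log2 1.08, SE 0.31). Nfkb2, its partner, had 28.2 CPM in ligated endothelium and 13.8, 13.7 and 14.1 CPM in mock endothelium (log2 0.97, SE 0.16). Ltb, which leukocytes make, stood at 47.3 CPM in ligated fibroblasts and 15.1, 17.1 and 15.9 CPM in mock fibroblasts, beside the leukocyte-led sub-cluster above.

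The genes most like each member were taken over 36 sums, 9 classes in 4 libraries, among 13010 genes, by Pearson's r of log2(CPM + 10). Since sums of a class and of a library share cells and depth, the values are descriptions. Among the genes closest to Ccl11 were Alx4 (0.992) and Lamc3 (0.988), and Cxcl14 was closest to Serpinf1 (0.985), Lum (0.958) and C3 (0.956). Ackr3 was closest to Kitl (0.973), Ptk2 (0.956) and Arhgap29 (0.949), and Cxcl12 to Plpp3 (0.951), Eng (0.948) and Ltbp4 (0.942). Ccl19 was closest to Il34 (0.929), Gm15261 (0.917) and Podxl2 (0.914), and Cxcl13 to Myorg (0.971), Zim1 (0.968) and Fetub (0.965), both resting on low counts. Cxcr4 had no close relative by this measure, its first being Mdn1 (0.725), Zfp36l2 (0.723) and Wtap (0.718).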

How the data were processed

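Stroma-enriched gland cells were measured as 10x droplet libraries, 1 ligated and 3 mock. The deposited matrices hold whole-number UMI counts per gene and barcode, made by the authors with Cell Ranger, version 6.0.1 (ligated, mock 1) or 7.0.0 (mock 2, 3) per the file headers, and 7.0.1 on mm10 per the submitters' processing notes. Neither states whether intronic reads were counted. Intronic length is from GENCODE on GRCm38.

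From these counts, barcodes with at least 500 UMIs, 300 genes and at most 15% mitochondrial UMIs were kept, and 748, 72, 0 and 1 barcodes called doublets by Scrublet in the ligated library and mock 1, 2 and 3 were removed. The call marked almost no barcodes in mock 2 and 3. Whether it failed there or doublets had been removed before deposit is not known, and removal by score rank was tried as an alternative. Cells were clustered in scanpy 1.11.5 (Leiden 0.10.2, 2000 variable genes without the 8 genes, 30 components, 15 neighbours, resolution 1) and clusters named by marker lists. The scoring rule that left clusters unnamed was set after the clusters were seen. Classes with 30 or more cells in every library were summed per library and tested with edgeR 4.0.16 in R 4.3.3 (TMM, filterByExpr, quasi-likelihood), adjusted over all genes of the class. The fit was tested on simulated data. CPM values carry no TMM factor, the fitted differences do. Thinning drew 2000 UMIs per cell, leaving out shallower cells.

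The 8 genes and all lists were chosen with earlier results of these data known. Genes named from a list were those with the largest difference among those outside the mock range and with a mean of at least 10 CPM, up to 5 per class, of which the text gives some, chosen after their values were seen. Cxcr5, Ccr7, Ccr3 and Ackr4 fall outside that rule and are named as receptors of the ligands. Endothelial Cxcr3 and Ccr2 also fall outside it and are named to show their low level. Alternatives covered normalization, filters, DESeq2 1.42.0, software version, each mock library left out, clustering and doublets. The labels do not state that libraries came from separate animals, so p-values reflect only how far these samples spread, and that spread may be technical.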

Additional observations from a re-analysis of the deposited data

Results flagged for a closer look

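Ccl11 and Cxcl14 differed between fibroblasts and endothelium in their ligated over mock ratio by edgeR's class by surgery term, by -2.71 (adjusted p = 0.0048) and -3.56 (adjusted p = 0.00309) on the log2 scale. For both genes the endothelial side stood near the level that fibroblast markers reach in endothelial cells. The same term for Cxcl12 between T cells and NK or ILC1 cells was -2.35 (adjusted p = 1.29e-09), with both classes near the level of endothelial markers.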

How the results depend on the processing

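Of 33 results under 441 alternatives, 427 kept their direction and 26 results kept it throughout. With software version as a term, which sets the ligated library against mock 1 with spread from mock 2 and 3 on 1 residual degree of freedom, fibroblast Cxcl12 was -0.87, Ccl11 -2.06, Ccl19 4.47 and Cxcl14 -0.15, endothelial Cxcl12 -2.15 and Ackr3 -0.39, and mural Ccl11 -1.42. Against mock 1 alone, fibroblast Cxcl14 was -0.20 and Ccl19 4.43, and endothelial Ackr3 -0.29. DESeq2 gave fibroblast Ccl11 -2.41, now past the threshold.

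Leaving out each mock library in turn, with the lone ligated library assumed to vary like mock, gave fibroblast Cxcl12 -1.05 to -0.95, Cxcl14 0.021 to 0.23, Ccl11 -2.55 to -2.32 and Ccl19 1.73 to 2.71. Endothelial Cxcl12 ran from -1.56 to -0.48, Ackr3 from -1.07 to -0.77, mural Ccl11 from -1.31 to -1.16 and the Cxcl12 fibroblast minus mural term from -1.0003 to -0.95. Without mock 1 these passed the threshold, while mock 2 and 3, the closest pair, alone set the spread. Genes past the threshold then numbered 0 to 7130 in fibroblasts, 0 to 8993 in endothelium, 0 to 1937 in mural cells and 0 to 12359 in all cells. By contrast DESeq2 called 280, 246, 1 and 1260, the version term 3418, 5243, 717 and 8331. With no low count filter 6 passed in fibroblasts and 1 in all cells, with doublets removed by rate 1 in fibroblasts and 1 in mural cells, and within the Mgp and Cilp cluster 15.

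Signs turned, with the cause not tested, for fibroblast Ccl19 within the Mgp and Cilp cluster (-0.73), fibroblast Cxcr4 with the 8 genes kept in clustering (-0.15), doublets removed by rate (-0.014) or resolution 2 (-0.15), mural Cxcl12 at resolution 2 (-0.033), and arterial Ackr3 with DESeq2 size factors (-0.00056), no filter (-0.013) and DESeq2 (-0.0037). Without mock 1 they also turned, the ranges over left-out mock libraries being -0.21 to 0.45 for endothelial Cxcr4, -0.058 to 0.084 for mural Cxcl12, -0.20 to 0.16 for arterial Ackr3, -1.58 to 0.59 for T cell Cxcr4 and -0.51 to 0.41 for the Cxcl12 fibroblast minus endothelial term. The Cxcl12 fibroblast minus mural term was -0.97 with no filter (adjusted p = 0.0397, edgeR). No paired analysis was possible because the ligated and mock groups share only replicate number 1.

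The single ligated library limits every comparison: a difference of that library cannot be told apart from one of surgery, and software version differs within mock. Depth limits Cxcl13, Cxcr4, Cxcr5, Ccr3 and Ackr4, which gave few UMIs per library, and lymphatic endothelium, with 6 to 31 cells per library.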
